A study of Homo sapiens with 9 samples.

Results

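Interferons are secreted proteins that cells release in response to viruses and other danger signals, and melanoma cells can both make and answer them. Type I interferons bind the receptor pair IFNAR1 and IFNAR2, which activates the kinases JAK1 and TYK2. STAT2 is phosphorylated and enters, with IRF9, the ISGF3 complex, which binds the interferon-stimulated response element (ISRE) in the promoters of induced genes. Interferon gamma acts through IFNGR1 and IFNGR2 and on gamma-activated sites (GAS), for instance before IRF1, a transcription factor that induces many of the same genes.

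The 9 genes described here are STAT2, IRF9 and IRF1, which carry the signal, and IFIT1, IFIT3, MX1, OAS1, ISG15 and IFI6, which it induces. They were taken by name as a fixed list, and all 9 were found among the 14625 genes named in at least 1 library. Of these, 8 had a mean of at least 1 FPKM (fragments per kilobase, relative to all mapped fragments of the library) and were tested with 12238 genes in all. IRF9 was below that level because its RNA was assembled into transcripts of its neighbour.

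Poly-A selected RNA of WM3248, a human melanoma cell line, was sequenced, with 3 libraries each at 0 µM (DMSO vehicle), 4 µM and 6 µM of the small molecule ARN22089, harvested after 24 h. ARN22089 was designed to keep CDC42 family GTPases from binding their effectors. The cells carried no genetic change that distinguished the doses, no interferon treatment is named, and results apply to 1 cell line. Whether the 3 libraries of each dose stem from separate cultures is not given, and each p-value therefore reflects library-to-library spread that may be purely technical. In bulk RNA fewer cells with a transcript cannot be told apart from less transcript per cell.

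Depth in reads is unknown, and relative to the median library it ran between 0.802 and 1.34. Between 397 and 566 tested genes stood at 0 in a library, which in assembled data can be a missed transcript, and replicate 1 at 0 µM had the most. All 8 melanocyte lineage markers were assembled, MLANA being at 0 in replicate 3 at 0 µM. Summed, they were at 1246 to 2359 FPKM at 4 µM and 1385 to 2054 FPKM at 6 µM. The vehicle libraries were at 406 to 1389 FPKM. The lowest and the highest sum, both in replicate 2, were those with S100B at 97.0 FPKM (0 µM) and 1884 FPKM (4 µM). The summed fibroblast list was at 29.9 to 54.6 FPKM at 4 µM, 33.0 to 56.9 at 6 µM and 17.8 to 65.9 at 0 µM. KRT14, the only keratinocyte marker assembled, reached at most 2.27 FPKM. The leukocyte markers PTPRC, CD3E, CD79A, CD14 and FCGR3A and the plasmacytoid dendritic cell markers CLEC4C and LILRA4 were assembled in no library. IL3RA, the third marker of the dendritic cell list, was at 2.78 FPKM in replicate 1 at 0 µM and at 0 in every other library, and the summed leukocyte list, here LYZ alone, was at 2.62 to 4.45 FPKM over all 9 libraries.

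To show what the interferon elements look like in these genes, promoters from RefSeq (GRCh38.p14), running from 250 bases before to 50 after each annotated start, were searched on both strands for TTTCNNTTTC (ISRE) and TTCNNNGAA (GAS); the letters of these motifs do not contain each other. All 9 genes had an entry. ISRE letters were present in 5 of the 9 (ISG15, IFI6, IFIT1, IFIT3 and MX1), against 4.38% of 27305 genes in the table, and GAS letters in 4 of the 9 (IRF1, IRF9, OAS1 and MX1), against 9.38%. A match describes the letters and is not a measured binding site. Shown 5′ to 3′ on the gene's own strand, with matches in capitals, is a stretch near the start of the RefSeq span for each of 6 genes:
ISG15, chr1:1013364-1013419 (+): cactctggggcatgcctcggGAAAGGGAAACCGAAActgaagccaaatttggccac
IFI6, chr1:27672256-27672327 (-): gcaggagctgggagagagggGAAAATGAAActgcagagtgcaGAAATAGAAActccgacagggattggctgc
IFIT1, chr10:89392487-89392549 (+): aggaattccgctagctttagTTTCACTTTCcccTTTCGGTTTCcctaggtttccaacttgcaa
IFIT3, chr10:89327855-89327904 (+): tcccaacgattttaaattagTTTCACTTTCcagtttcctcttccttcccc
MX1, chr21:41420559-41420588 (+): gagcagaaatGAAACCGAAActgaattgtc
IRF1, chr5:132490869-132490917 (-): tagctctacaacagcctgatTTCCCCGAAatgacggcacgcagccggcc
ISG15, IFIT1 and IFI6 each held 2 ISRE matches in the stretch shown, overlapping in ISG15 and 3 bases apart in IFIT1, and IFI6, IFIT3 and MX1 held further matches outside the stretches shown. The first match of ISG15 lay 113 bases before the start and that of IFIT1 116 bases before it, whereas the MX1 match shown lay 11 bases after an annotated start. The IRF1 sequence holds the GAS letters, 124 bases before its start. Among the 51 further induced genes with a promoter entry, 36 held the ISRE letters and 15 the GAS letters.

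No gene of the list passed the test over all genes (limma on log2(FPKM + 1), Benjamini-Hochberg adjusted p under 0.05) at either dose or between the doses. The background was low as well: 0.0817% of tested genes passed at 4 µM against 0 µM, 0.311% at 6 µM against 0 µM and 0.0245% at 6 µM against 4 µM, or 10, 38 and 3 genes (1 gene at 6 µM against 4 µM with the replicate number as a block). At an unadjusted p under 0.05, the 8 tested genes gave 0, 1 and 0, against 10.9%, 17.8% and 4.66% of all tested genes. The 1 was IFIT1, which lay lower at 6 µM. Their median log2 difference was 0.26 at 4 µM and 0.19 at 6 µM, both against 0 µM, where the medians of all tested genes were -0.0023 and -0.03. Positive differences were found in 6 of 8 and 7 of 8 genes, where 49.5% and 46.3% of all tested genes had one, and in 4 of 8 between 6 and 4 µM, against 44.3%. In FPKM no gene of the list had groups without overlap at 4 µM against 0 µM, where 9.97% of all tested genes were higher and 8.43% lower in this way. These counts rest on the same 3 vehicle libraries.

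**Figure D1:**
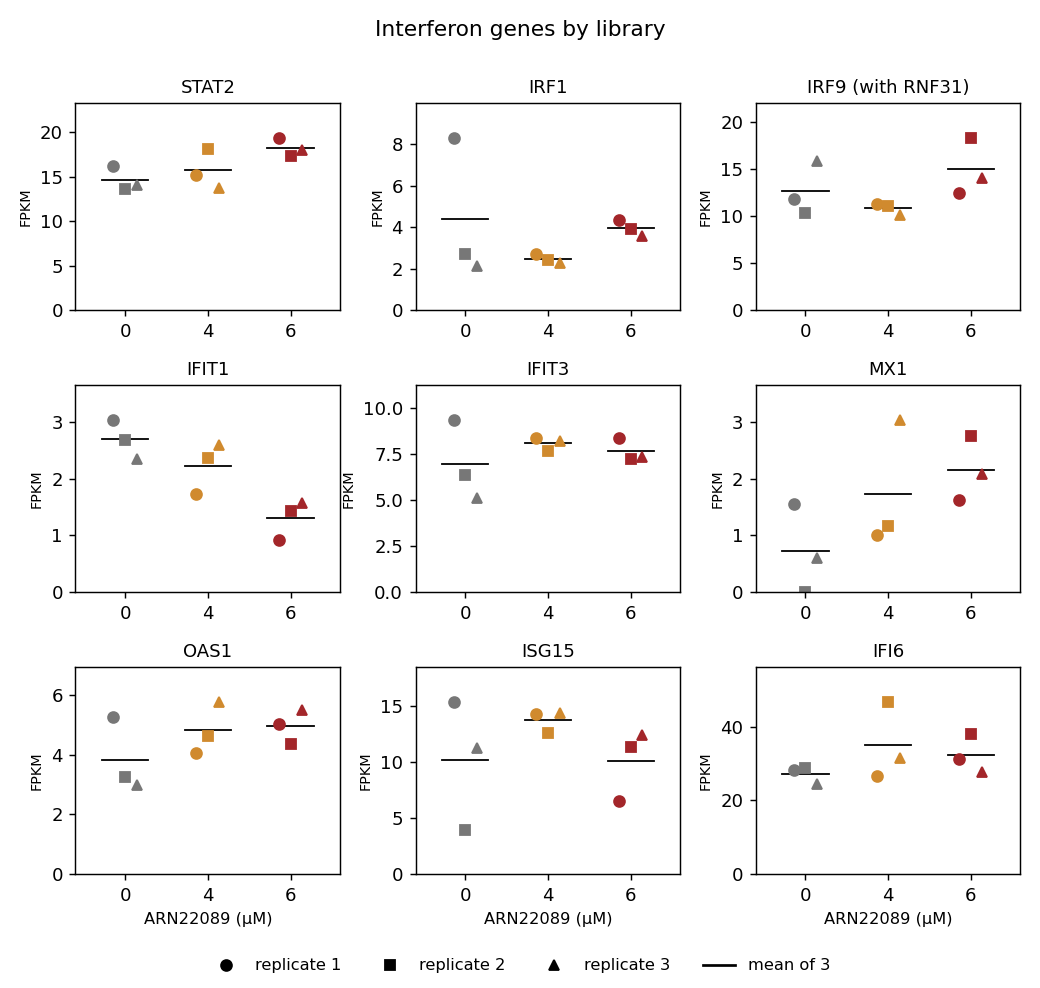
Level of each of the 9 genes in FPKM (vertical axes, linear from 0) in each library at 0, 4 and 6 µM ARN22089, with symbols for replicate numbers and a line at the mean of 3. IRF9 is plotted as the summed level of transcripts that also hold RNF31. In IFIT1 the 6 µM libraries lie below all others, and in IRF1, IFIT3, OAS1 and ISG15 replicate 1 lies above the other vehicle libraries.

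STAT2 (chromosome 12, 56341597 to 56360107, minus strand) encodes the STAT that carries the type I signal into ISGF3. It was at 15.2, 18.2 and 13.7 FPKM at 4 µM and at 19.4, 17.3 and 18 FPKM at 6 µM, against 16.2, 13.6 and 14.1 FPKM at 0 µM. All 3 libraries at 6 µM lay above all 3 at 0 µM, while those at 4 µM overlapped both other doses. The log2 difference at 6 µM against 0 µM was 0.30 ± 0.14 (SE; 95% interval -0.03 to 0.63; adjusted p = 0.318). Non-overlap in the higher direction was seen in 10.9% of all tested genes in that comparison. The assembly split STAT2 into several forms, and those with 23 or 24 exons held 100%, 40.7% and 51.6% of its FPKM at 4 µM and 21.5%, 67.6% and 46.7% at 6 µM, against 72.3%, 78.4% and 65.2% at 0 µM. The difference depended on how the forms were summed: over the exonic bases common to most libraries it was 0.16 ± 0.10 at 6 µM against 0 µM (adjusted p = 0.352), and over fragments (FPKM times length in kb) 0.18 ± 0.11 (adjusted p = 0.343), and on both scales the doses overlapped.

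IRF9 (chromosome 14, 24161265 to 24166565, plus strand), the DNA-binding partner of STAT2, could not be given a level of its own. All 13 spliced transcripts that held an IRF9 intron, over the 9 libraries, also held introns of RNF31 (chromosome 14, 24146875 to 24160655), which ends 609 bases upstream on the same strand and encodes a subunit of the linear ubiquitin chain assembly complex. The only transcript named IRF9 was a single-exon fragment of 2.53 FPKM in replicate 3 at 4 µM. The summed level of the joint transcripts was 11.3, 11 and 10.1 FPKM at 4 µM and 12.5, 18.3 and 14.1 FPKM at 6 µM, against 11.8, 10.4 and 15.9 FPKM at 0 µM. All libraries at 6 µM lay above all at 4 µM, and both doses overlapped with 0 µM. In summed FPKM 3.67% of all tested genes lay higher at 6 µM than at 4 µM in this way. The share on the measure used here for IRF9 was not computed. The log2 difference was -0.19 ± 0.19 at 4 µM and 0.23 ± 0.19 at 6 µM against 0 µM (adjusted p = 0.721 and 0.577), and 0.42 ± 0.19 at 6 µM against 4 µM (adjusted p = 0.957). These values were added after the data were seen, and they describe RNF31 and IRF9 together.

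**Figure D2:**
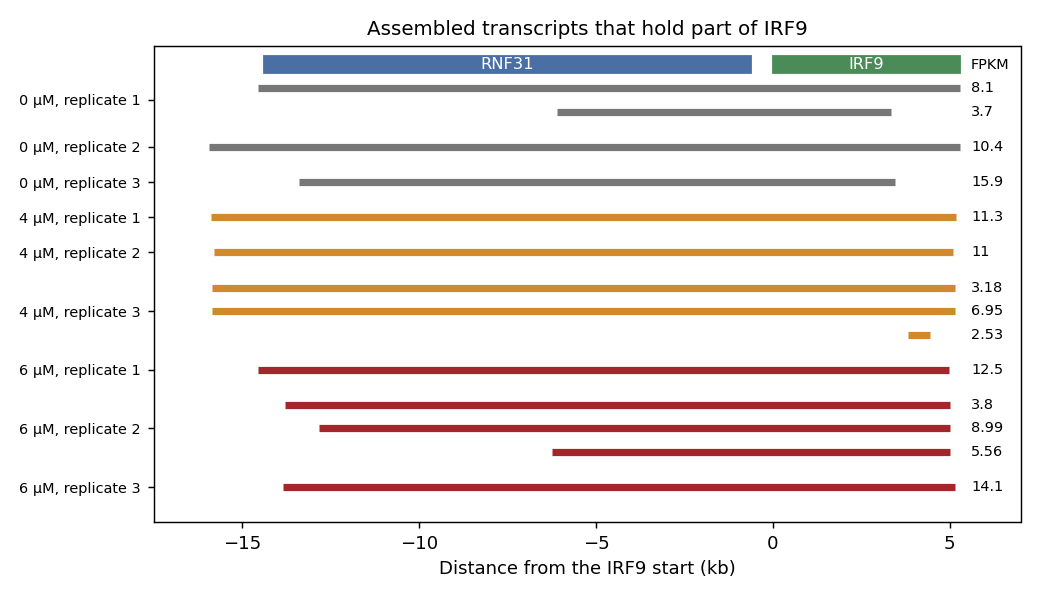
Spans of the assembled transcripts that hold part of IRF9, by library, as distance in kb from the IRF9 start (horizontal axis), with the RefSeq spans of RNF31 and IRF9 at the top and each transcript's FPKM at the right. All but 1 of the transcripts, a fragment of 2.53 FPKM, reach into RNF31.

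IRF1 (chromosome 5, 132481609 to 132490773, minus strand) stood out by 1 vehicle library. It was at 2.70, 2.42 and 2.29 FPKM at 4 µM and at 4.37, 3.90 and 3.57 FPKM at 6 µM, against 8.32, 2.69 and 2.15 FPKM at 0 µM. Replicate 1 at 0 µM was the highest of the 9 libraries, and the other vehicle libraries lay within or near the range at 4 µM. All libraries at 6 µM lay above all at 4 µM, as in 3.67% of all tested genes, with a log2 difference of 0.51 ± 0.37 (95% interval -0.34 to 1.36; adjusted p = 0.954). Against 0 µM the log2 difference at 6 µM was 0.05 ± 0.37 (adjusted p = 0.963), and without replicate 1 at 0 µM it was 0.54 ± 0.17 (adjusted p = 0.184). Forms of 10 exons held 78.5%, 100% and 82.2% of IRF1 at 4 µM and 100% in each library at 6 µM, against 59.0%, 100% and 64.4% at 0 µM.

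IFIT1 (chromosome 10, 89392623 to 89406487, plus strand), whose protein binds viral RNA that lacks the methylation of host caps, was the gene of the list with the smallest p. It was at 1.73, 2.36 and 2.6 FPKM at 4 µM and at 0.911, 1.44 and 1.57 FPKM at 6 µM, against 3.04, 2.69 and 2.36 FPKM at 0 µM. Every library at 6 µM lay below every library at 4 and at 0 µM, while 4 and 0 µM overlapped. The log2 difference at 6 µM against 0 µM was -0.69 ± 0.23 (95% interval -1.21 to -0.16; unadjusted p = 0.0164 and adjusted p = 0.183 in limma). Non-overlap in the lower direction was found in 14.1% of all tested genes in that comparison and in 7.34% between 6 and 4 µM. At 6 µM against 4 µM the difference was -0.49 ± 0.23 (adjusted p = 0.954).

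IFIT3 (chromosome 10, 89327997 to 89340968, plus strand), which binds IFIT1 and stabilises it, overlapped between all doses. It was at 8.34, 7.65 and 8.21 FPKM at 4 µM and at 8.34, 7.21 and 7.34 FPKM at 6 µM, against 9.33, 6.36 and 5.11 FPKM at 0 µM. The highest and the lowest value were both from vehicle libraries. The log2 difference was 0.23 ± 0.20 at 4 µM and 0.15 ± 0.20 at 6 µM (adjusted p = 0.683 and 0.718). In the same libraries the other genes of the family had means of 1.84 ± 0.25 FPKM at 4 µM and 1.69 ± 0.26 FPKM at 6 µM, against 2.66 ± 1.86 FPKM at 0 µM (IFIT2; SD, n = 3), and 4.55 ± 0.99 and 3.32 ± 0.58 against 5.64 ± 2.11 FPKM (IFIT5). Neither passed (adjusted p = 0.65 and 0.32 at 6 µM against 0 µM).

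MX1 (chromosome 21, 41420558 to 41459214, plus strand), a dynamin-like GTPase that traps viral ribonucleoproteins, was low throughout. It was at 1.00, 1.17 and 3.04 FPKM at 4 µM and at 1.63, 2.76 and 2.08 FPKM at 6 µM, against 1.56, 0 and 0.603 FPKM at 0 µM, where replicate 2 is listed at 0. All libraries at 6 µM lay above all at 0 µM, as in 10.9% of all tested genes, the nearest pair being 1.63 FPKM at 6 µM and 1.56 FPKM at 0 µM. The log2 difference was 0.96 ± 0.42 (95% interval -0.01 to 1.94; adjusted p = 0.282), the largest of the list at 6 µM, and on the log2(FPKM + 1) scale the difference of so low a gene is understated. The sums of replicates 2 and 3 at 6 µM and of replicate 3 at 4 µM each add 2 separate fragments of the gene, each with a level of its own. Over common exonic bases MX1 was at 1.63, 1.21 and 1.28 FPKM at 6 µM, against 1.56, 0 and 0.317 FPKM at 0 µM. In scaled fragments it was at 4.05, 2.87 and 3.57 at 6 µM, against 4.25, 0 and 0.865 at 0 µM (log2 difference 1.06 ± 0.59, adjusted p = 0.31). On both scales 6 and 0 µM overlapped. Its paralog MX2, which acts on retroviruses, was at 39.0 ± 8.73 FPKM at 4 µM and 43.6 ± 3.74 FPKM at 6 µM, against 33.2 ± 1.9 FPKM at 0 µM (SD, n = 3). MX2 at 6 µM lay above 0 µM in every library, as in 10.9% of all tested genes, with a log2 difference of 0.38 ± 0.17 (adjusted p = 0.29).

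OAS1 (chromosome 12, 112906962 to 112933219, plus strand) makes the oligoadenylates that activate RNase L upon double-stranded RNA. It was at 4.07, 4.64 and 5.78 FPKM at 4 µM and at 5.05, 4.35 and 5.50 FPKM at 6 µM, against 5.28, 3.26 and 3.00 FPKM at 0 µM. Replicate 1 at 0 µM lay inside the range of the treated libraries and the other vehicle libraries below it. The log2 difference was 0.29 ± 0.22 at 4 µM and 0.33 ± 0.22 at 6 µM (adjusted p = 0.642 and 0.473). Transcripts of 5 exons held 65.7%, 66.8% and 100% of OAS1 at 4 µM and 50.8%, 62.8% and 67.5% at 6 µM, against 100%, 100% and 64.5% at 0 µM. The remainder had 6 exons, in transcripts of differing length. Forms of 6 exons were missing from 2 vehicle libraries and 1 library at 4 µM, and their absence can be a missed assembly.

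ISG15 (chromosome 1, 1013497 to 1014540, plus strand) encodes a ubiquitin-like modifier. It was at 14.3, 12.5 and 14.4 FPKM at 4 µM and at 6.47, 11.3 and 12.4 FPKM at 6 µM, against 15.3, 3.93 and 11.2 FPKM at 0 µM. The libraries at 6 µM lay below those at 4 µM, as in 7.34% of all tested genes, and both doses overlapped with 0 µM. The log2 difference was 0.56 ± 0.42 at 4 µM and 0.11 ± 0.42 at 6 µM against 0 µM (adjusted p = 0.633 and 0.921), and -0.45 ± 0.42 at 6 µM against 4 µM (adjusted p = 0.954).

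The low ISG15 values went with long assembled transcripts. Each library held 1 ISG15 transcript, of 664, 816 and 645 bases at 4 µM and of 1032, 661 and 647 bases at 6 µM, against 646, 1624 and 757 bases at 0 µM. The longest transcripts, in replicate 2 at 0 µM and replicate 1 at 6 µM, had the lowest FPKM, a unit that divides by length. FPKM times length in kb, which is fragments scaled to the library and was added after the lengths were seen, gave 9.47, 10.2 and 9.27 at 4 µM and 6.67, 7.5 and 8.01 at 6 µM, against 9.90, 6.38 and 8.51 at 0 µM. On that scale the libraries at 6 µM still lay below those at 4 µM. The share of all genes that did so was not computed. The log2 difference at 6 µM against 0 µM changed sign to -0.13 (limma adjusted p = 0.711). Over common exonic bases it stayed positive at 0.11 (limma adjusted p = 0.896). The transcript of 1624 bases starts at 1012498, before the RefSeq start, so its scaled fragments include bases outside the gene. Whether length caused the low values was not tested.

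**Figure D3:**
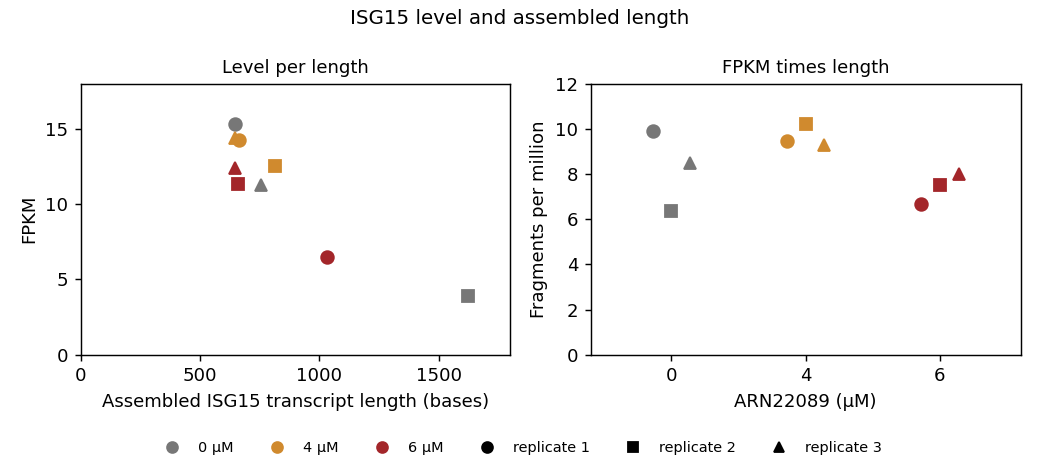
Left, ISG15 level in FPKM against the length in bases of its assembled transcript, 1 point per library; right, FPKM times length in kb (scaled fragments) by dose. The transcripts of 1624 and 1032 bases have the lowest FPKM, 3.93 and 6.47, and on the right scale the vehicle libraries span 6.38 to 9.90.

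IFI6 (chromosome 1, 27666064 to 27672192, minus strand), a small membrane protein that limits cell death and virus replication, had the highest level of the list. It was at 26.5, 46.7 and 31.5 FPKM at 4 µM and at 31.1, 37.9 and 27.6 FPKM at 6 µM, against 28.3, 28.9 and 24.3 FPKM at 0 µM. Replicate 2 was the highest library at each dose, and the doses overlapped in FPKM. The log2 difference was 0.31 ± 0.22 at 4 µM and 0.23 ± 0.22 at 6 µM (adjusted p = 0.617 for both). In scaled fragments IFI6 was at 25.5, 38.5 and 26.1 at 4 µM and at 26.0, 31.8 and 26.8 at 6 µM, against 23.8, 24.2 and 19.8 at 0 µM. On that scale all libraries at both doses lay above those at 0 µM (log2 difference 0.38 ± 0.18 and 0.31 ± 0.18, limma adjusted p = 0.375 and 0.335). The scale was added after the data were seen, and the share of all genes without overlap was not computed on it. Over common exonic bases the doses overlapped.

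FPKM is a level per length, so the genes can be ranked within a dose. At 0 µM the order of the means was IFI6 (27.2 FPKM), STAT2 (14.6), ISG15 (10.2), IFIT3 (6.93), IRF1 (4.38), OAS1 (3.84), IFIT1 (2.70) and MX1 (0.720). IFI6 lay above STAT2 in every vehicle library without overlap, whereas STAT2 and ISG15, ISG15 and IFIT3, IFIT3 and IRF1, IRF1 and OAS1, and OAS1 and IFIT1 each had overlapping ranges. IFIT1 lay above MX1 without overlap. At 6 µM the order of means differed in the lowest places, with MX1 at 2.16 FPKM above IFIT1 at 1.31 FPKM without overlap, and OAS1 at 4.97 FPKM above IRF1 at 3.95 FPKM, where the nearest libraries of OAS1 and IRF1 overlapped narrowly. The place of MX1 rests on sums of separate fragments: over common exonic bases it averaged 1.37 FPKM at 6 µM (1.21 to 1.63) and IFIT1 1.45 FPKM (1.35 to 1.57), so that the order turned and the ranges overlapped. The places of OAS1 and IRF1 also depended on the summing. Over common exonic bases OAS1 averaged 3.26 FPKM and IRF1 3.65 FPKM at 6 µM, with overlapping ranges. That is the same order as at 0 µM on this measure (2.83 and 3.96 FPKM).

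Replicate 1 at 0 µM moved with many of these values. It was the highest of the 3 vehicle libraries in 7 of the 8 tested genes, IFI6 being the exception, whereas it was the highest in 42.1% of all tested genes. The median log2 difference of replicate 1 from the mean of replicates 2 and 3 was 0.61 over the 8 genes and 0.02 over all tested genes, for which the central 90% spanned -1.12 to 1.14. IRF1 (1.45) lay beyond that range, and ISG15 (1.07) and MX1 (1.01) lay near its upper end. The 53 tested genes of the wider list of induced genes had a median of 0.19, and replicate 1 was the highest in 27 of them. 

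Marker genes also differed in that library. Of the 8 melanocyte lineage markers 6 (MITF, SOX10, PMEL, TYR, DCT and TYRP1) were lowest of the vehicle libraries there, for instance DCT at 55.3 FPKM, against 141 and 77.4 FPKM in replicates 2 and 3, and MITF at 8.15 FPKM, against 14.7 and 17.7 FPKM. MLANA was highest there, at 2.55 FPKM, against 1.81 and 0 FPKM in replicates 2 and 3. The marker sum of 904 FPKM lay between those of the other vehicle libraries, 406 and 1389 FPKM. S100B was at 726 FPKM, against 97 and 1137 FPKM in replicates 2 and 3. All 6 fibroblast markers were lowest of the vehicle libraries in replicate 1, with a summed level of 17.8 FPKM in a vehicle range of 17.8 to 65.9 FPKM. COL1A2 (-1.94) and LUM (-1.46) lay beyond the central 90% of all tested genes, and COL1A1 and COL3A1 were at 0. PTPRC, CD3E, CLEC4C and LILRA4 were not assembled there, while the dendritic cell marker IL3RA was at 2.78 FPKM. The share of all tested genes that were lowest in replicate 1 was not computed, so these marker counts have no background beside them. The part of these markers in the result was not tested.

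**Figure D4:**
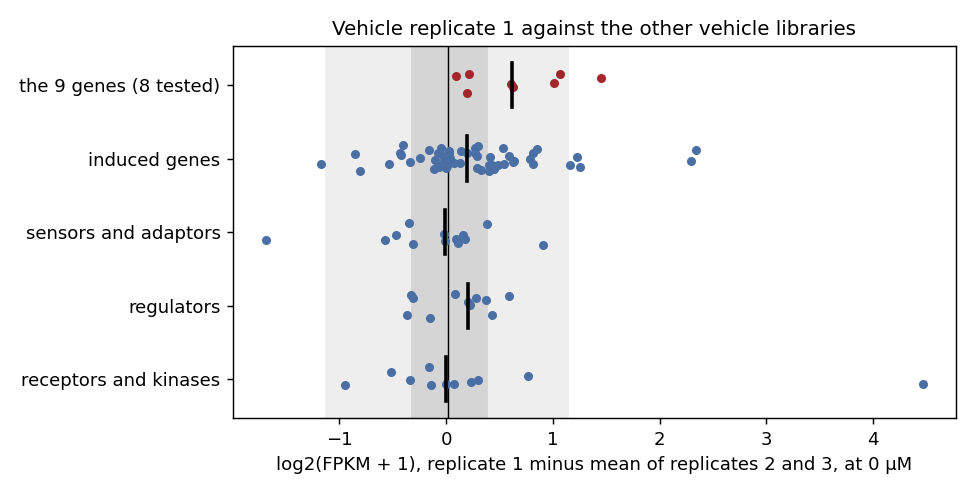
Difference of log2(FPKM + 1) between replicate 1 and the mean of replicates 2 and 3 at 0 µM, 1 point per gene, with a bar at each list's median; dark and light grey bands hold the central 50% and 90% of all tested genes. The 8 tested genes all lie above 0, with a median of 0.61; the point far to the right among receptors and kinases is IL10RB.

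Without replicate 1 at 0 µM, tested as a left-out library, more of the 8 genes had an unadjusted p under 0.05, all but IFIT1 on the higher side. At 4 µM against the remaining vehicle libraries these were IFIT3, MX1 and OAS1 (3 of 8, against 10.8% of all tested genes). At 6 µM they were STAT2, IRF1, IFIT3, MX1 and OAS1, with IFIT1 lower (6 of 8, against 17.3%). At 6 µM against 4 µM, whose fit shares the spread, they were IRF1 on the higher and IFIT1 on the lower side (2 of 8, against 6.1%). At 6 µM the log2 differences were then 0.37 ± 0.14 for STAT2, 0.36 ± 0.14 for IFIT3, 1.30 ± 0.38 for MX1, 0.53 ± 0.18 for OAS1 and -0.62 ± 0.22 for IFIT1. None passed over all genes, where 0.212%, 0.621% and 0.0654% of tested genes did in the 3 comparisons: the lowest adjusted p of the 8 was 0.416 at 4 µM and 0.167 at 6 µM, both against 0 µM, and 0.810 between the doses. Replicate 1 is singled out here because it was the highest vehicle library in 7 of these 8 genes. Leaving it out therefore raises their differences by construction, and the counts above are no separate evidence. With replicate 2 or replicate 3 at 0 µM left out instead, limma gave 0 of the 8 genes at 4 µM and 1 at 6 µM. All tested genes then gave 10.2% to 10.9% and 15.9% to 16.6%. The part that replicate 1 plays in the results was otherwise not tested.

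**Figure D5:**
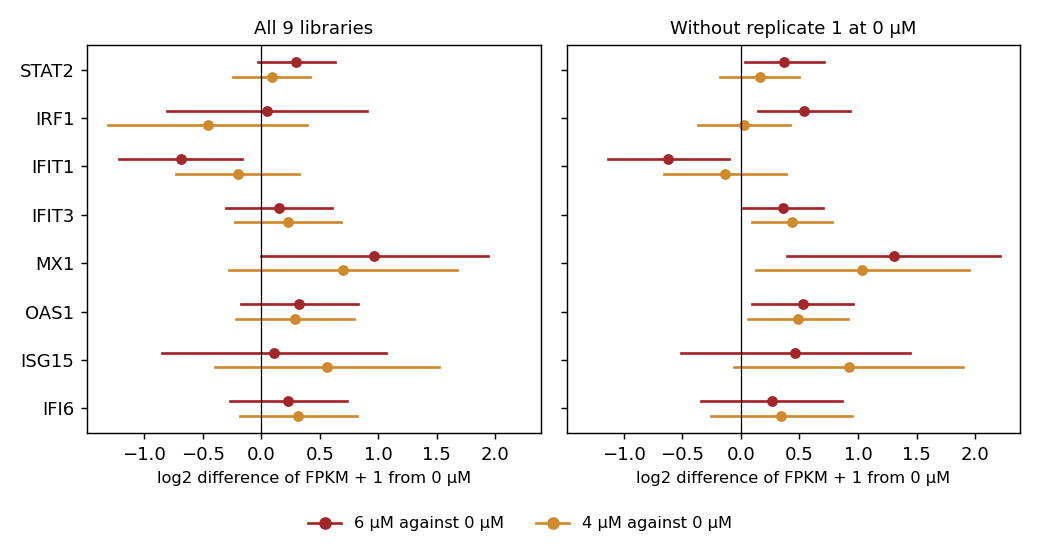
Log2 difference of FPKM + 1 from 0 µM (horizontal axis; point, estimate; line, 95% interval) at 6 µM and 4 µM for the 8 tested genes, with all 9 libraries on the left and without replicate 1 at 0 µM on the right. IFIT1 at 6 µM lies below 0 in both panels, and IRF1 at 6 µM is at 0.05 on the left and 0.54 on the right.

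Upstream of these genes, 0 of 10 ligand genes (IFNA1, IFNA2, IFNB1, IFNE, IFNK, IFNW1, IFNG, IFNL1, IFNL2 and IFNL3) were named in any library. At unknown depth this limits only abundant transcripts, and a single-exon transcript lying in more than 1 gene was left unnamed. The receptors and kinases were present. Of 11 such genes all were tested and 0 passed at either dose; unadjusted p-values under 0.05 were found for 2 genes on the higher and 1 on the lower side for 4 µM, and for 3 and 1 for 6 µM, where 10.9% and 17.8% of all tested genes reached it in either direction, with medians of -0.18 and 0.37. The receptor chain IFNAR1 averaged 10.1 ± 0.36 and 29.5 ± 20.1 FPKM at 4 and 6 µM, against 11.9 ± 2.04 FPKM at 0 µM (SD, n = 3), with overlapping libraries. IFNGR1, the ligand-binding chain for interferon gamma, was at 20.7 ± 1.44 and 34.9 ± 17.8 FPKM at 4 and 6 µM against 16.8 ± 2.31 at 0 µM, with a log2 difference of 0.91 ± 0.30 at 6 µM (adjusted p = 0.18).

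TYK2, the kinase bound to IFNAR1, was at 42.8 ± 16.5 FPKM at 4 µM and 54.1 ± 7.88 FPKM at 6 µM, against 25.8 ± 1.2 FPKM at 0 µM (SD, n = 3; log2 difference 1.03 ± 0.24 at 6 µM, adjusted p = 0.09). Over the exonic bases common to most libraries TYK2 gave -0.20 instead, and over fragments -0.09, so its direction depended on how the gene was summed. JAK1 was at 10.5 ± 0.75 and 14.5 ± 6.76 FPKM at 4 and 6 µM against 15.2 ± 5.36 at 0 µM, and JAK2 at 1.59 ± 0.20 and 1.92 ± 0.37 against 2.67 ± 1.22. IFNGR2 was at 149 ± 4.00 and 184 ± 37.4 FPKM against 148 ± 58.3. IFNAR2 was at 10.5 ± 5.93 and 12.3 ± 0.95 FPKM against 14.3 ± 3.74, but in some libraries it shared transcripts with its neighbour IL10RB, which was listed at 0 in 2 vehicle libraries. Those zeros enter the counts above, where IL10RB is on the higher side at both doses. None of these passed.

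Of 16 regulators 11 were tested and 0 passed, with medians of 0.12 at 4 µM and 0.07 at 6 µM, and at an unadjusted p under 0.05 there was 1 in each direction at 4 µM, while 3 were higher and 2 lower at 6 µM (10.9% and 17.8% of all tested genes). IRF2, an antagonist of IRF1 at shared promoter elements, was at 19.1 ± 3.25 FPKM at 4 µM and 20.3 ± 2.67 FPKM at 6 µM, against 13.4 ± 0.68 FPKM at 0 µM (SD, n = 3). Its libraries lay above those at 0 µM at both doses, as in 9.97% (4 µM) and 10.9% (6 µM) of all tested genes. The log2 differences were 0.47 ± 0.16 and 0.56 ± 0.16 (adjusted p = 0.39 and 0.14). IRF3, which starts interferon transcription, was at 45.8 ± 6.02 and 51.5 ± 12.9 FPKM against 41.7 ± 3.61, and IRF7, which amplifies it, at 5.29 ± 2.21 and 4.19 ± 1.07 against 5.59 ± 2.06. The feedback inhibitors USP18 (4.25 ± 1.56 and 2.82 ± 0.11 FPKM against 3.76 ± 0.87) and SOCS3 (1.74 ± 0.36 and 1.47 ± 0.52 against 1.69 ± 0.73) overlapped between doses, and SOCS1 was not assembled.

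Of 14 nucleic acid sensors and adaptors 13 were tested. None passed in FPKM, with 1 higher at an unadjusted p under 0.05 at 4 µM and 4 higher at 6 µM (10.9% and 17.8% of all tested genes in either direction), and medians of 0.08 and 0.09. IFIH1, the MDA5 sensor of long double-stranded RNA, was at 3.18 ± 0.30 FPKM at 4 µM and 5.18 ± 1.40 FPKM at 6 µM, against 2.32 ± 0.15 FPKM at 0 µM (SD, n = 3). All its libraries at both doses lay above those at 0 µM, as in 9.97% (4 µM) and 10.9% (6 µM) of all tested genes. The log2 difference of IFIH1 at 6 µM was 0.87 ± 0.21 (adjusted p = 0.10). With the level over common exonic bases IFIH1 passed at 6 µM (0.95 ± 0.18, adjusted p = 0.034), as it did over fragments (1.17 ± 0.23, adjusted p = 0.037). TICAM1, the adaptor of TLR3, is named because of its value and passed with common exonic bases (0.69 ± 0.13, limma adjusted p = 0.035). It did not pass in FPKM (0.59 ± 0.18, limma adjusted p = 0.16) or over fragments (0.64 ± 0.18, limma adjusted p = 0.076). Many more genes passed on the 2 other measures at 6 µM against 0 µM. They were 525 of 12243 over common exonic bases and 478 of 12453 over fragments, against 38 of 12238 in FPKM. RIGI, the sensor of short double-stranded RNA ends, was at 1.15 ± 0.16 and 1.24 ± 0.27 FPKM at 4 and 6 µM against 1.33 ± 0.18 at 0 µM. CGAS, STING1 and MAVS also overlapped at 6 and 0 µM, with log2 differences of 0.07, 0.09 and -0.05.

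Of 63 further induced genes, 53 were tested and 0 passed at either dose in FPKM. At an unadjusted p under 0.05 the 4 µM libraries gave 5 on the higher and 2 on the lower side, the 6 µM libraries 7 and 3, where all tested genes gave 10.9% and 17.8%, and the medians were 0.002 and 0.01. BST2, which tethers budding virus, was at 109 ± 15.7 FPKM at 4 µM and 105 ± 19.1 FPKM at 6 µM, against 73.7 ± 22.7 FPKM at 0 µM (SD, n = 3; adjusted p = 0.45 and 0.31). IFI44 was at 6.44 ± 1.32 and 6.05 ± 0.74 FPKM at 4 and 6 µM against 9.81 ± 3.89 at 0 µM. OAS2 (1.18 ± 1.06 and 1.18 ± 0.36 FPKM against 1.30 ± 0.77) and OAS3 (3.05 ± 0.64 and 2.66 ± 2.19 against 4.07 ± 2.71), the paralogs of OAS1, overlapped between doses. IFITM1, IFITM2 and IFITM3, whose sequences are so alike that reads may be split between them, were at 39.1 ± 16.3, 184 ± 56.7 and 551 ± 73.1 FPKM at 4 µM and at 41.3 ± 19.7, 136 ± 28.5 and 476 ± 37.1 FPKM at 6 µM, against 24.4 ± 4.95, 111 ± 44.6 and 449 ± 40.1 FPKM at 0 µM. IFITM2 at 4 µM lay above 0 µM in every library (log2 difference 0.78 ± 0.35, adjusted p = 0.47), as in 9.97% of all tested genes. The other comparisons of the IFITM genes with 0 µM overlapped. IFI27 was listed at 0 in some libraries of every dose, and IFI44L was below 1 FPKM on average. B2M, the light chain of HLA class I, was at 687 ± 118 FPKM at 4 µM and 883 ± 230 FPKM at 6 µM, against 565 ± 175 FPKM at 0 µM (log2 difference 0.66 ± 0.28 at 6 µM, adjusted p = 0.27).

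To name genes with a like pattern, the log2 levels of the 7 listed genes with no library at 0 and at least 1 FPKM on average were standardised over the 9 libraries and averaged. This mean profile was highest in replicate 1 at 0 µM (1.61) and lowest in replicates 3 and 2 at 0 µM (-1.70 and -1.51), with the treated libraries between -0.30 and 0.94. The nearest genes outside the lists by root mean square difference were MGAT4A, a glycosyltransferase (0.34), TEX264, a receptor for autophagy of the endoplasmic reticulum (0.36), DNAJC21, a ribosome assembly factor (0.38), GSTK1, a glutathione transferase (0.41), and CIAO3, of cytosolic iron-sulfur assembly (0.41). The median over all tested genes was 1.39, and the listed genes themselves ran between 0.58 for IFIT3 and 1.40 for IFIT1.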

How the data were processed

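Each library was deposited as transcripts assembled separately by Cufflinks, per the file headers, with no gene names and no counts. TopHat2 2.1 and Bowtie2 2.2.7 were used per the submitters' processing notes, which also name Cufflinks 2.2.1, SAMtools 1.9, R 4.0.3 and Trimmomatic. The values the authors deposited are FPKM, held beside other attributes in a text column. The notes name GRCh37, but 95.8% of 193769 spliced transcripts matched genes by GRCh38 spans and 17.3% by GRCh37 spans, so coordinates are GRCh38.

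In Python 3.11.15 (pandas 2.3.3), spliced transcripts were named after the same-strand RefSeq gene that they overlapped and shared the most intron lengths with, strands and intron lengths coming from GENCODE. Single-exon transcripts needed at least 50% of their length inside a single gene that was never assembled with introns. Whether libraries kept strand is not given, so overlapping and antisense genes are uncertain. A gene's level is the sum of its transcripts' FPKM. Alternatives were the level over exonic bases shared by at least 50% of libraries with the gene assembled, and, added after seeing the data, every transcript holding an intron of the gene, and FPKM times length. All genes averaging 1 FPKM or more entered 1 limma 3.58.1 fit (R 4.3.3) of log2(FPKM + 1) over 9 libraries, with 6 residual degrees of freedom and Benjamini-Hochberg adjustment at 0.05. In simulated data for 6 µM against 0 µM over 12238 genes, 0 of 50 genes changed by 0.5 on the log2 scale were called, 15 of 50 at 1 and 32 of 50 at 2.

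The members and lists were chosen with earlier results of these data known. Named with values were the 9 genes, a fixed set of pathway genes whatever they did, any listed gene that passed, and the 5 nearest profiles; 1 gene of that set is not reported here. Same-numbered libraries carry the same date-like note, whose meaning the labels do not give. Deviations of same-numbered libraries correlated at 0.105 to 0.137 between 6 and 4 µM, against -0.092 to -0.022 for different numbers. Between 4 and 0 µM they correlated at -0.018 to 0.0054, against -0.012 to 0.016, and between 6 and 0 µM at 0.036 to 0.050, against -0.047 to -0.0036. The numbers are taken as pairs only between 6 and 4 µM. Values of single genes nevertheless come from the fit without pairs unless a block is named. For 6 µM against 4 µM the limma fit with the replicate number as a block gave adjusted p = 0.854 for IRF1 and IFIT1 and 0.882 for ISG15.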

Additional observations from a re-analysis of the deposited data

How the results depend on the processing

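None of the 8 tested genes passed at an adjusted p under 0.05 in any comparison under any setting run, and the joint IRF9 level did not pass either. Of 693 alternative values of single genes, 669 kept direction and side of the threshold. Signs turned in these cases: with TPM, IFIT1 at 4 µM against 0 µM gave 0.0402 and OAS1 at 6 µM against 4 µM -0.0031; with a pseudocount of 5, IRF1 at 6 µM against 0 µM gave -0.0111; over common exonic bases, with or without the block, OAS1 at 6 µM against 4 µM gave -0.0591 and TYK2 at 6 µM against 0 µM -0.20; over fragments, ISG15 and TYK2 at 6 µM against 0 µM gave -0.13 and -0.0879. The cause was not tested, and the ISG15 lengths given above are a description only. TPM moved the median of all genes to 0.31 at 4 µM and 0.23 at 6 µM and that of the 8 genes to 0.57 and 0.48. With 1 library left out, log2 differences spanned -0.0135 to 0.18 for STAT2, -0.76 to 0.03 for IRF1 and -0.32 to -0.0314 for the joint IRF9 level at 4 µM against 0 µM. At 6 µM against 0 µM they spanned -0.25 to 0.54 for IRF1, -0.018 to 0.36 for IFIT3 and -0.40 to 0.47 for ISG15, and at 6 µM against 4 µM -0.0565 to 0.15 for OAS1 and -0.26 to 0.14 for IFI6. MX1 could not be tested over common exonic bases, where its mean was under 1 FPKM.

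The count over all genes at 4 µM against 0 µM, 10, was 6 with a pseudocount of 5 or a minimum of 5 FPKM, and 6 to 26 with 1 library left out. At 6 µM against 0 µM, 38 (22 higher, 16 lower) became 22 without a filter, 77 at a minimum of 5 FPKM, 17 with TPM (16 higher, 1 lower), 525 over common exonic bases (204 higher, 321 lower), 478 over fragments (152 higher, 326 lower), 15 with a constant variance prior, 15 with only those doses, and 16 to 76 with 1 library left out. At 6 µM against 4 µM, 3 became 5 without a filter, 5 with a constant variance prior, and 2 to 14 with 1 library left out. With the replicate number as a block the counts were 2, 4 and 1, and with the block over common exonic bases 5, 698 and 0; the block called none of the 8 genes. Over common exonic bases with the block IFIH1 had an adjusted p of 0.025 and TICAM1 0.029, and CXCL10, named for this value, 0.045 (log2 difference 1.61). Without replicate 1 at 0 µM, UBE2L6 passed at 6 µM (0.77, limma adjusted p = 0.039). Replicate 1 was its highest vehicle library, at 35.7 FPKM against 14.4 and 14.4 FPKM. Leaving it out therefore raises the UBE2L6 difference by construction. With all 9 libraries UBE2L6 gave 0.35 (limma adjusted p = 0.587) and its groups overlapped. IL10RB also passed without replicate 1, at both doses, where the remaining vehicle libraries list it at 0. IL10RB was not absent there: summed over every transcript holding one of its introns, it was at 17.5 to 21.1 FPKM in the vehicle libraries. On that measure, with all 9 libraries, its log2 difference was 0.69 at 4 µM and 0.25 at 6 µM (limma adjusted p = 0.39 and 0.63). Its passing therefore says nothing about the dose.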

Other observations

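Some induced genes outside the 9, and the sensor gene DHX58, are named here because of their values, without passing the test. Of the 53 tested induced genes 9 lay above and 4 below 0 µM without overlap at 4 µM, and 9 and 3 at 6 µM. Over all tested genes these shares were 9.97% and 8.43% at 4 µM, and 10.9% and 14.1% at 6 µM. SAMD9, listed at 0 in some treated libraries, and TRIM14 lay below 0 µM at both doses (log2 difference -1.49 and -1.30, and -0.45 and -0.46, at 4 and 6 µM). DDX60L, a helicase-like gene, was at 1.60 ± 0.56 FPKM at 4 µM and 2.68 ± 0.80 FPKM at 6 µM, against 4.39 ± 0.46 FPKM at 0 µM (SD, n = 3; limma adjusted p = 0.27 at both doses). RTP4 was at 3.51 ± 0.85 and 3.04 ± 0.93 FPKM at 4 and 6 µM against 1.55 ± 0.53 FPKM at 0 µM (adjusted p = 0.38 and 0.26). PSMB8, a subunit of the immunoproteasome, was at 56.6 ± 3.58 and 60.2 ± 5.84 FPKM at 4 and 6 µM against 41.2 ± 5.07 FPKM at 0 µM (adjusted p = 0.37 and 0.11). DHX58, a relative of the RIGI sensor, was at 3.28 ± 0.44 and 4.70 ± 0.45 FPKM at 4 and 6 µM against 2.40 ± 0.09 FPKM at 0 µM (adjusted p = 0.08 at 6 µM). CXCL10, a chemokine, was listed at 0 in all 3 vehicle libraries.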
